A study of Mus musculus with 12 samples.

Results

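The L1MdA rows are the A group of mouse LINE-1 retrotransposons, and they were followed in RNA of Kdm4a knockout and control mouse embryos at the 2-cell stage. Every row whose repeat name starts with L1MdA_ was taken, which gave 7 of the 18538 names listed in each library, numbered I to VII from young to old. All 7 are listed as class LINE and family L1, and all 7 passed the filter on low counts. Total RNA came from C57BL/6 preimplantation embryos 1.5 days after fertilization, in 12 libraries. The WT group (m+/p-, 6 libraries) came from wild-type oocytes and the KO group (Kdm4a knockout, m-/p-, 6 libraries) from Kdm4a knockout oocytes, and sperm of Kdm4a knockout males fertilized both. Both groups therefore lacked a working paternal allele, and they differed in the maternal allele and in the Kdm4a product stored in the oocyte. The labels give neither the number of embryos and females behind each library nor how the knockout was made. The p-values measure the spread between these libraries, which may be partly technical, and other differences between the oocyte donors cannot be told apart from the genotype.

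LINE-1 elements copy themselves through RNA. A full-length element carries an internal promoter in its 5′ end, built in mouse from tandem monomers, and encodes an RNA-binding protein and a protein with endonuclease and reverse transcriptase activity. The A, Tf and Gf groups hold the young mouse elements, named by their promoter monomers, while older groups survive mostly as broken copies. LINE-1 RNA is abundant in the early mouse embryo, where the genome of the embryo is first transcribed. Kdm4a encodes a demethylase of lysines of histone H3, among them a lysine whose methylation marks silenced repeats.

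Library totals lay between 7952526 and 18902360 counts. The tested rows held over 99% of each library, and the L1MdA rows between 0.906% and 1.43%. Ribosomal RNA repeats took 4.79% to 6.94%. MERVL-int, the internal part of the endogenous retrovirus that marks the 2-cell stage, was present in all 12 libraries, from 19686 to 91277 normalised CPM (CPM, here counts scaled to a common library total after TMM factors had set the typical row to one level in all libraries). The files hold repeat names and no genes, so the level of Kdm4a was not analysed here. A count belongs to a name and not to a genomic copy, and related names can share reads. Reads from L1MdA copies inside other transcripts can also enter these counts. In these bulk libraries, fewer cells holding the RNA of a name and less of that RNA per cell cannot be told apart. Lengths and copy numbers of the 7 names were not used here, so counts of different names are not compared as levels.

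The first comparison asked whether each L1MdA name differed between the genotypes. L1MdA_II, the second youngest name, was lower in KO, and the other 6 names did not pass the test. L1MdA_II ranged from 5810 to 11663 normalised CPM in WT with a median of 8086, and from 2833 to 5604 in KO with a median of 4813. The ranges did not overlap. WT replicate 2 was the highest and WT replicate 5 the lowest of the WT group, and KO replicates 1 and 6 (2833 and 3094) lay below the other KO libraries. The mean of the 6 KO libraries was 4441 ± 1198 against 8287 ± 1906 for the 6 WT libraries (± SD), and the fitted log2 fold change was -0.90 (standard error 0.19, 95% interval -1.30 to -0.50, edgeR quasi-likelihood adjusted p = 0.0293 over all 3312 rows tested). Behind these values stood 87690 to 144232 counts in WT and 48008 to 80853 in KO.

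This was 1 of 7 L1MdA names called lower and 0 called higher by edgeR, beside 1.27% of all tested rows called lower, 0.151% called higher and 1.42% called in either direction. Among all tested rows averaging 100 normalised CPM or more, which include all 7, 4.50% were called lower. At an unadjusted p under 0.05, edgeR also had 1 L1MdA name lower and 0 higher, beside 7.91% and 5.50% of all rows. DESeq2 and limma-voom with quality weights each called 1 lower and 0 higher after adjustment. Of all 3312 rows, DESeq2 called 127 lower and 42 higher, and weighted limma-voom 63 lower and 8 higher. L1MdA_II was the 1 name of 7 whose groups did not overlap, beside 1.39% of all rows with every KO library lower and 0.725% with every KO library higher.

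With 1 library left out, the call of L1MdA_II was lost for WT replicate 1, 3, 4 or 6 or KO replicate 1, 3 or 6 (edgeR adjusted p = 0.0572, 0.0714, 0.0515, 0.0698, 0.0559, 0.0611 and 0.0769), and its log2 fold change stayed between -0.99 and -0.78 over all 12 omissions. Without both KO replicates 1 and 6, which had the largest TMM factors (1.26 and 1.24), it was -0.68 (edgeR adjusted p = 0.107). Only 2 rows of the whole table were called then. Of the library total, L1MdA_II held 0.486% ± 0.0962 in KO libraries against 0.735% ± 0.105 in WT libraries (± SD, n = 6), and on this scale the groups overlapped, since KO replicate 5 (0.604%) lay above WT replicate 5 (0.568%).

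**Figure D1:**
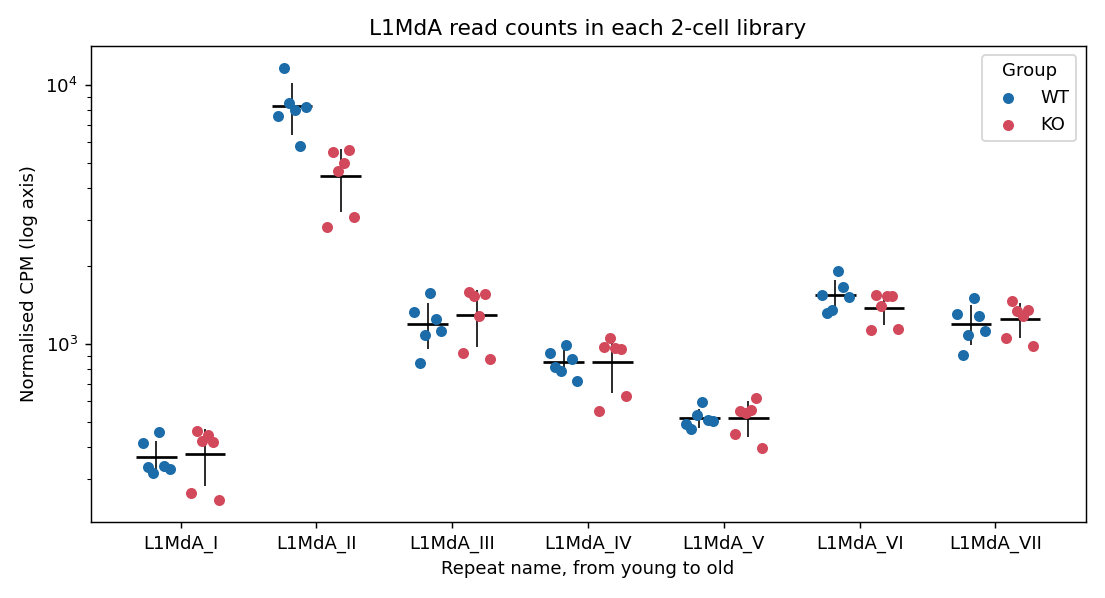
Normalised CPM of the 7 L1MdA names (log axis) in each of the 6 WT and 6 KO libraries; each point is a library, black bars are group means and vertical lines 1 SD. The KO points of L1MdA_II (2833 to 5604) lie below all its WT points (5810 to 11663), while the groups overlap for the other 6 names.

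L1MdA_I is the youngest name of the group. It ranged from 318 to 455 normalised CPM in WT and from 249 to 460 in KO, with medians of 336 and 419, and the groups overlapped. Its log2 fold change was 0.04 (standard error 0.16, 95% interval -0.30 to 0.38, edgeR adjusted p = 0.960). The neighbouring name in age, L1MdA_II, therefore changed while the counts of the youngest name gave an interval that spans 0.

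L1MdA_III ranged from 843 to 1569 normalised CPM in WT (median 1183) and from 877 to 1585 in KO (median 1403), with a log2 fold change of 0.11 (95% interval -0.26 to 0.48, edgeR adjusted p = 0.877). L1MdA_IV ranged from 716 to 987 in WT (median 843) and from 549 to 1056 in KO (median 960), with a log2 fold change of 0.01 (95% interval -0.31 to 0.33, edgeR adjusted p = 0.991). L1MdA_V ranged from 468 to 596 in WT (median 506) and from 397 to 620 in KO (median 544), with a log2 fold change of 0.01 (95% interval -0.21 to 0.22, edgeR adjusted p = 0.991). For these 3 names of middle age the KO range ran past the WT range at its upper end, and for L1MdA_IV and L1MdA_V it also did so at its lower end. In each, the 2 lowest KO libraries were replicates 1 and 6, as they were for all 7 names.

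The 2 oldest names did not pass the test either. L1MdA_VI ranged from 1312 to 1907 normalised CPM in WT (median 1532) and from 1128 to 1541 in KO (median 1462), with a log2 fold change of -0.17 (95% interval -0.40 to 0.07, edgeR adjusted p = 0.563). L1MdA_VII ranged from 903 to 1506 in WT (median 1200) and from 979 to 1467 in KO (median 1310), with a log2 fold change of 0.05 (95% interval -0.21 to 0.32, edgeR adjusted p = 0.923). Summed over the 6 names other than L1MdA_II, the level was 5663 ± 1054 normalised CPM in KO libraries against 5676 ± 821 in WT libraries (± SD, n = 6). The 7 log2 fold changes did not rise or fall steadily with age from I to VII.

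The TMM factors set these values against the typical row. They ran from 0.767 to 0.977 in WT libraries and from 0.978 to 1.26 in KO libraries, so they did not overlap between the genotypes. With these factors, the median over all tested rows was 0.01 on the log2 scale. With library totals in place of TMM factors that median became 0.32, and the calls over all rows turned from 5 higher and 42 lower to 357 higher and 33 lower. L1MdA_I, III, IV, V and VII moved with it, to log2 fold changes of 0.32, 0.38, 0.29, 0.30 and 0.33. L1MdA_VI then stood at 0.12, so that its sign turned while it stayed below the median of all rows. L1MdA_II remained lower, at -0.60 (edgeR adjusted p = 0.0103).

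**Figure D2:**
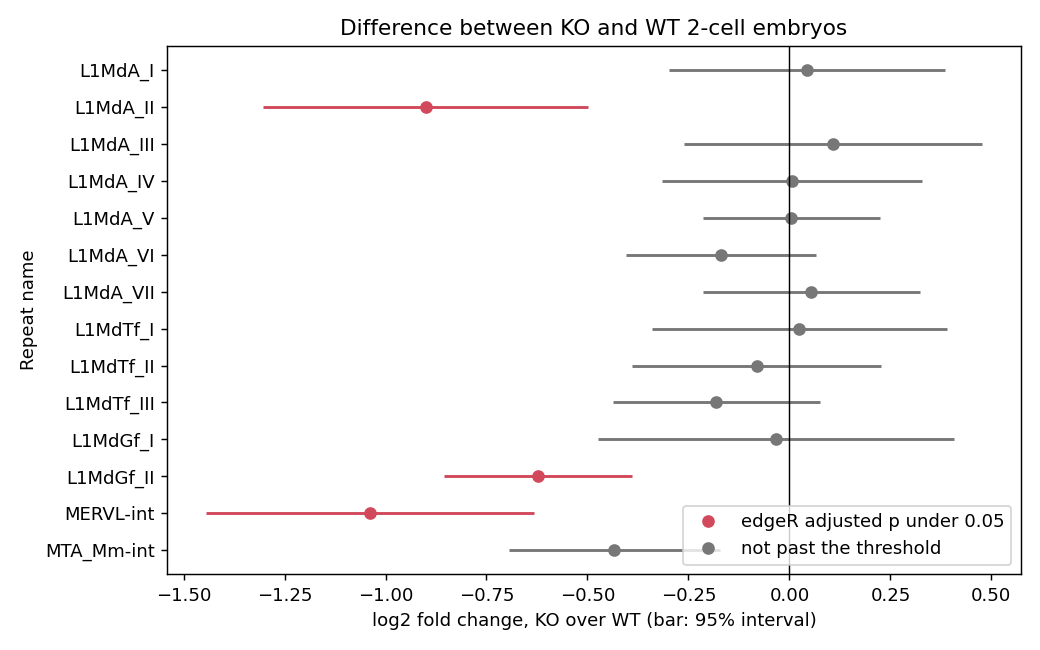
Log2 fold change of KO over WT for the 7 L1MdA names, the Tf and Gf names and 2 retroviral comparators; points are edgeR estimates and bars their 95% intervals, red where the adjusted p is under 0.05. L1MdA_II (-0.90), L1MdGf_II (-0.62) and MERVL-int (-1.04) are red, and the intervals of the other 6 L1MdA names span 0.

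The second comparison asked whether the names differed from each other in their response, by the log2 ratio of 2 counts of one library, in which the scaling cancels. In all, 42 ratios were tested by exact permutation over every regrouping of the 12 libraries, 21 of them between pairs of L1MdA names. All 6 ratios between L1MdA_II and another L1MdA name passed, and 1 of the 15 ratios among the other names did. The log2 ratio of L1MdA_I to L1MdA_II rose by 0.93, from -4.49 ± 0.413 in the WT libraries to -3.56 ± 0.124 in the KO libraries, with no overlap (± SD, n = 6 each, two-sided exact permutation p = 0.0021645, adjusted over 42 to p = 0.00699). That p is the smallest this design can give.

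Against L1MdA_III, IV, V and VII the log2 ratio of L1MdA_II changed by -1.01, -0.89, -0.91 and -0.98, each with no overlap and the same exact permutation p. Against L1MdA_VI it changed by -0.75, with overlapping groups (n = 6, exact permutation p = 0.00649, adjusted p = 0.0160). The 6 ratios passed in each of the 12 omissions of a single library. Without both KO replicates 1 and 6 the ratio to L1MdA_VI changed by -0.62 and no longer passed (exact permutation, adjusted p = 0.0538). The remaining ratio that passed was that of L1MdA_VI to L1MdA_VII, at 0.150 ± 0.0839 in the KO libraries against 0.378 ± 0.0985 in the WT libraries (± SD, n = 6 each). Its exact permutation p was 0.00433, or 0.0114 after adjustment. This ratio also passed in each of the 12 omissions, with differences between -0.25 and -0.20. The other 14 ratios, all without L1MdA_II, gave differences of 0.02 to 0.26 in size and did not pass.

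The division of the L1MdA counts among the 7 names shows the same data as shares. L1MdA_II took 43.5% ± 2.71 of the L1MdA counts of a KO library against 58.8% ± 7.73 of a WT library (± SD, n = 6). The highest KO share, 46.6% in replicate 5, lay below the lowest WT share, 49.6% in replicate 5. The SD of this share was larger in WT, where it reached 71.4% in replicate 2. The shares add up to one whole, and the other 6 names each took a larger mean share in KO, for example 2.63% ± 0.418 against 3.70% ± 0.252 for L1MdA_I and 8.71% ± 2.06 against 12.7% ± 0.880 for L1MdA_III (WT against KO, ± SD, n = 6). Of all L1 family counts, the 7 names together took 9.96% ± 1.07 in KO libraries against 12.6% ± 0.899 in WT libraries (± SD, n = 6). L1MdA_II alone took 4.36% ± 0.705 in KO against 7.44% ± 1.51 in WT. The mean share of L1MdA_VI was 1.37% in KO against 1.40% in WT, and those of L1MdA_I, III, IV, V and VII were higher in KO.

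**Figure D3:**
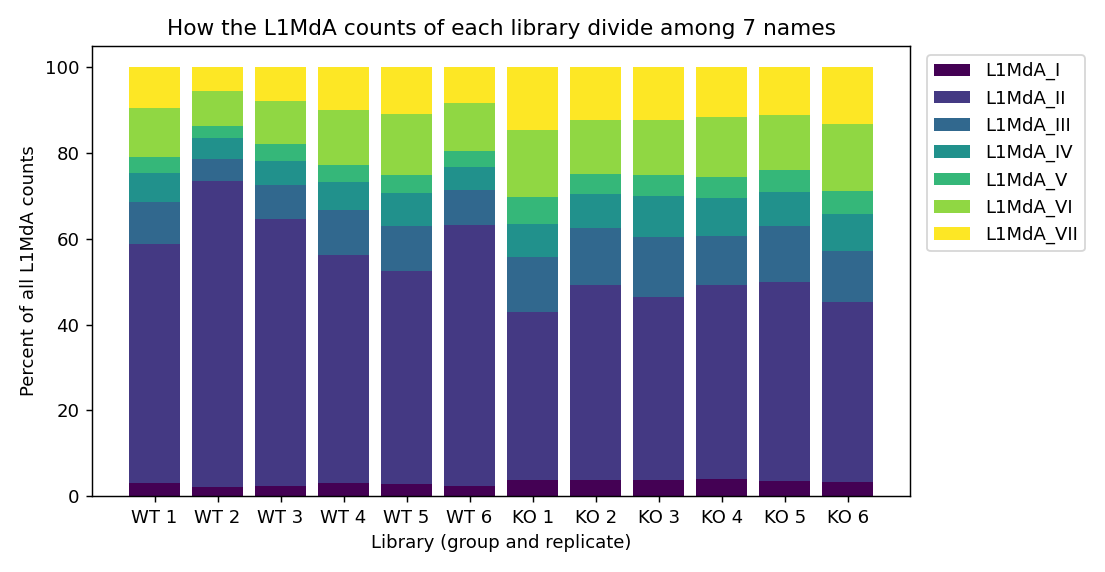
Percent of all L1MdA counts taken by each of the 7 names in each library (bars stack to 100%, youngest name at the bottom). The L1MdA_II segment runs from 49.6% to 71.4% in WT and from 39.3% to 46.6% in KO.

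Among the other young groups of LINE-1, the 3 Tf names were not called, and 1 of the 2 Gf names was lower. EdgeR called 0 of 3 Tf names, also at an unadjusted p under 0.05, as did DESeq2 and limma-voom with quality weights after adjustment. The log2 fold changes of L1MdTf_I, II and III were 0.02, -0.08 and -0.18. L1MdGf_II fell by 0.62 on the log2 scale, to 2765 ± 376 from 4259 ± 585 normalised CPM (± SD, n = 6, edgeR adjusted p = 0.0157), and L1MdGf_I had a value of -0.03 (95% interval -0.47 to 0.41, edgeR adjusted p = 0.977).

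Of the 13 other L1Md names edgeR called 0, with 2 lower and 0 higher at an unadjusted p under 0.05, while 2 were lower by DESeq2 and 1 by weighted limma-voom. The first 2 were L1MdMus_II and L1MdF_III, named after their values were seen, at -0.68 and -0.56 on the log2 scale with edgeR adjusted p-values of 0.0534 and 0.113. Of the 26 older rodent rows named Lx, L1_Mus, L1_Mur or L1_Rod, edgeR called 0 (5 lower and 0 higher at an unadjusted p under 0.05), while 1 was lower by DESeq2 and 0 by weighted limma-voom. Of the 98 remaining L1 rows, mostly ancient fossils, edgeR called 1 lower (2 lower and 30 higher at an unadjusted p under 0.05). DESeq2 had 2 of them lower and 7 higher, and weighted limma-voom 2 lower and 1 higher. Beside these counts, edgeR called 1.27% of all 3312 rows lower and 0.151% higher (7.91% and 5.50% at an unadjusted p under 0.05). Of the same 3312 rows, DESeq2 called 127 lower and 42 higher, and weighted limma-voom 63 and 8. The median log2 fold change was 0.01 for the 7 L1MdA names, 0.01 for the 13 other L1Md names, -0.01 for the rodent rows and 0.17 for the remaining L1 rows, beside 0.01 for all tested rows.

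Against the summed counts of the 18 other L1Md names, L1MdA_II changed by -0.65 on the log2 scale within a library, with no overlap between the groups (n = 6 each, exact permutation p = 0.0021645, adjusted p = 0.00699). The log2 ratios of L1MdA_I, III, V and VII to that sum changed the other way, by 0.29, 0.37, 0.27 and 0.33. They passed (n = 6, exact permutation, adjusted p = 0.0364, 0.0253, 0.0114 and 0.0114), with overlapping groups. For L1MdA_I the call was lost without WT replicate 2, 3 or 6 or KO replicate 2, 3, 4 or 5 (0.24 to 0.30), and for L1MdA_III without WT replicate 2 or KO replicate 2, 3, 4 or 5 (0.24 to 0.38). L1MdA_V and L1MdA_VII kept it in all 12 omissions of a library. L1MdA_IV (0.25, adjusted p = 0.0553) and L1MdA_VI (0.10, adjusted p = 0.457) did not pass the same exact permutation test with n = 6. That denominator holds L1MdGf_II, L1MdMus_II and L1MdF_III, which were themselves lower in KO or had negative fold changes, so a ratio to it moves with both of its parts. The edgeR log2 fold changes of L1MdA_I, III, V and VII themselves were 0.04, 0.11, 0.01 and 0.05.

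The third comparison set the L1MdA names beside MERVL-int and MTA_Mm-int, an LTR retrotransposon abundant in oocyte RNA. The log2 fold change of MERVL-int was -1.04 (edgeR adjusted p = 0.0159), with 19686 to 39592 normalised CPM in the KO libraries and 45234 to 91277 in the WT libraries. For every 100 counts of MERVL-int, L1MdA_II had 12.5 ± 0.223 counts in WT libraries against 13.8 ± 0.526 in KO libraries (± SD, n = 6), a coefficient of variation of 1.78% and 3.81%. For the other 6 names that coefficient was 24.9% to 34.5% in WT and 9.22% to 18.8% in KO. Within a genotype, the proportion of L1MdA_II to MERVL-int thus varied less than that of the other L1MdA names. L1MdMus_II, another LINE-1 name, had coefficients of 4.002% in WT and 6.57% in KO by the same measure. The assignment of reads that match several places is unknown here, and whether the counts of these names and of MERVL-int come from separate reads was not tested.

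The proportion was a little higher in KO. On the log2 scale, the ratio of L1MdA_II to MERVL-int stood at -2.86 ± 0.0553 in KO libraries against -3.00 ± 0.0256 in WT libraries, a difference of 0.14 with no overlap (± SD, n = 6 each). The exact permutation p was 0.0021645, or 0.00699 after adjustment. That difference lay between 0.13 and 0.15 over the 12 omissions of a library. For the other 6 names the log2 ratio to MERVL-int was higher in KO by 0.89 to 1.15, again with no overlap. MERVL-int marks the stage of the embryo and moved with L1MdA_II, and whether the libraries differed in their progress through the 2-cell stage was not tested.

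MTA_Mm-int itself had a log2 fold change of -0.43 (95% interval -0.69 to -0.17), which did not pass by edgeR (adjusted p = 0.0901) and passed by DESeq2 (adjusted p = 0.0219), so a ratio to it moves with both of its rows. Against it, the log2 ratio of L1MdA_II changed by -0.48 (n = 6, exact permutation p = 0.0216, adjusted p = 0.0413), which passed in 2 of the 12 omissions of a library, those of WT replicate 5 and KO replicate 5. L1MdA_V and L1MdA_VII changed by 0.44 and 0.50 against it (n = 6, exact permutation, adjusted p = 0.0390 and 0.0335), and lost the call without any one of WT replicates 1, 2 and 3 and KO replicates 3, 4, 5 and 6, and L1MdA_VII also without WT replicate 6 (0.36 to 0.45 and 0.37 to 0.53). The other 4 names, with differences of 0.27 to 0.54, did not pass, although all 4 did without WT replicate 4 (0.57, 0.67, 0.51 and 0.38 for L1MdA_I, III, IV and VI). No ratio to MTA_Mm-int separated the groups.

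**Figure D4:**
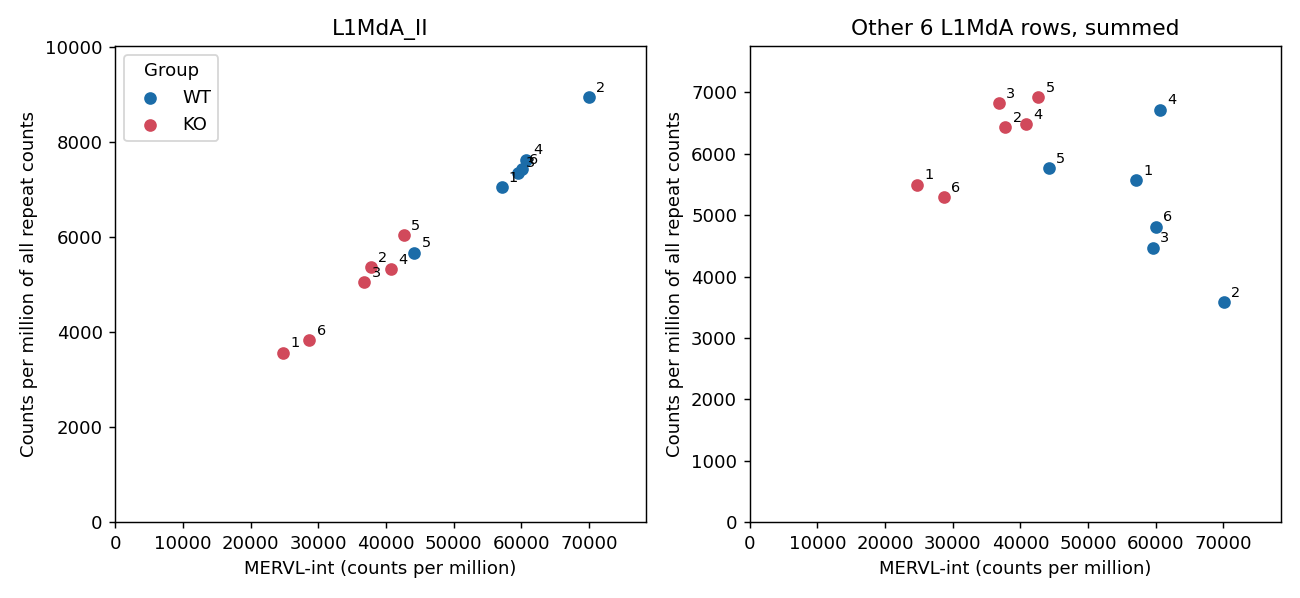
CPM of all repeat counts, without TMM factors, for MERVL-int (x axis) against L1MdA_II (left) and the other 6 L1MdA names summed (right); each point is a library, labelled with its replicate number. The L1MdA_II points of both genotypes lie close to a line through the origin (12.5 and 13.8 counts per 100 of MERVL-int), while the summed names show no such line.

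The rows that varied most like each L1MdA name were sought among 891 rows averaging 10 normalised CPM or more. L1MdA names, simple repeats and low-complexity rows were left out. Likeness was the Pearson correlation over the 12 libraries, on log2 normalised CPM with the mean of each genotype subtracted. These points share their library and its scaling, and the median correlation over the 891 rows lay between 0.04 and 0.16 for the 7 names. For L1MdA_II the 3 most alike were L1MdMus_II (r = 0.996), MERVL-int (r = 0.994) and MERVL_2A-int (r = 0.993), the last a relative of MERVL whose reads may overlap with it. Of the 20 rows with r over 0.9, 8 belonged to the ERVL family of retroviral elements, 4 to L1, 2 to ERVL-MaLR, 2 to ERVK and 1 each to 4 further families. The share of each family among the 891 rows was not set beside this, and related names among the 20 may share reads. All 20 had negative log2 fold changes, from -1.08 to -0.47, beside 1616 of all 3312 tested rows. The other L1MdA names had from 2 (L1MdA_V) to 15 (L1MdA_III) rows with r over 0.9.

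The other 6 names had LINE-1 rows alone among their 3 most alike. For L1MdA_I these were L1MdV_II (r = 0.946), L1_Mus3 (0.929) and L1MdF_II (0.929), and for L1MdA_III they were L1MdGf_I (0.954), L1MdF_V (0.953) and L1MdMus_I (0.943). For L1MdA_IV they were L1MdN_I (r = 0.961), L1MdV_II (0.925) and L1MdFanc_II (0.910), and for L1MdA_V L1_Mus3 (0.905), L1MdF_II (0.9002) and L1MdFanc_I (0.896). For L1MdA_VI they were L1_Mus3 (r = 0.952), L1MdMus_I (0.941) and L1MdF_II (0.914), and for L1MdA_VII L1MdMus_I (0.951), L1MdGf_I (0.947) and L1MdF_I (0.927). Of these 10 distinct rows, edgeR called 0 between the genotypes, beside 1.42% of all tested rows. At an unadjusted p under 0.05 it also had 0, beside 7.91% of all rows lower and 5.50% higher. With so few rows, a count of 0 lies near these shares.

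Among the L1MdA names themselves, the 15 pairs without L1MdA_II had r between 0.765 and 0.969 by the same measure, highest for L1MdA_III with L1MdA_VII. The 6 pairs with L1MdA_II had r between 0.182 and 0.631. On log2 CPM of the library total, the same ranges were 0.671 to 0.949 and -0.181 to 0.370. Each genotype was then taken alone. Between L1MdA_II and the summed other 6 names, r was -0.605 over the 6 WT libraries (exact permutation p = 0.188, rho = -0.771, exact permutation p = 0.103) and 0.976 over the 6 KO libraries (exact permutation p = 0.0167, rho = 0.829, exact permutation p = 0.0583). Adjusted over 8 relations computed, the p of r was 0.224 in WT and 0.0750 in KO. Without the 2 libraries farthest from the median of L1MdA_II, r was -0.592 in WT (without replicates 2 and 5) and 0.648 in KO (without replicates 1 and 6). On CPM of the library total the same relation was -0.590 in WT and turned to 0.306 without those 2 libraries. In KO it went from 0.933 to 0.392, so on that scale it rests on those libraries. On normalised CPM the WT value hardly moved, and every value without 2 libraries has few points behind it.

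The libraries at the ends of these ranges were few. In WT, replicate 2 had the highest L1MdA_II and the lowest level of 4 other L1MdA names, and replicate 4 was the highest for the 6 names other than L1MdA_II. In KO, replicates 1 and 6 were the 2 lowest libraries for all 7 names, with summed levels of the 6 names of 4370 and 4272 normalised CPM against 6051 to 6574 in the other 4. Those 2 libraries also had the lowest MERVL-int (19686 and 23149 normalised CPM) and large TMM factors, and the part of these in the L1MdA values was not tested beyond the omissions given above.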

How the data were processed

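Per the labels' protocols, 2-cell embryos were washed and lysed in individual tubes, and libraries were made with a stranded low-input kit that depletes ribosomal RNA. The submitters' processing notes name the mm10 build, Trimmomatic 0.32 and edgeR, without their roles. Not given in the sources used here: aligner, repeat annotation, counting program, use of strand, handling of reads matching several places, and L1MdA sequences. Each deposited file lists estimated counts by repeat name; all were whole numbers, so rounding changed nothing.

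All 3312 rows passing filterByExpr were fitted in edgeR 4.0.16 (R 4.3.3) with TMM factors, library sizes from all rows, the quasi-likelihood F test of KO against WT and Benjamini-Hochberg adjustment, threshold 0.05. Standard errors and 95% intervals came from the F statistic. Within-library log2 ratios (0.5 added to each count) were compared by two-sided exact permutation tests, adjusted over 42 ratios. The alternatives used DESeq2 1.42.0 and limma 3.58.1. The edgeR fit was tested on simulated counts. The exact permutation test of the ratios was checked against a second program on an observed ratio, and on values with a known shift. The other tests were not checked in these ways. Rows named are the L1MdA names, fixed comparators, called L1Md rows and the 3 rows most alike to each L1MdA name. Those 3 were sought among rows averaging 10 normalised CPM or more, with simple repeats and low-complexity rows left out. Members, lists and tests were chosen with earlier results of these data known. Between replicates of a group, chi-square per degree of freedom was 29.6 to 176, so no pair agreed within sampling noise. Replicate numbers follow the sample titles; the numbers in the deposited file names run the opposite way within each genotype. Depth was 7952526 to 18902360 counts per library; without molecular identifiers, reads are not separate molecules.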

Additional observations from a re-analysis of the deposited data

Results flagged for a closer look

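A library far from the others of its group was looked for in 98 sets of 6 values (the 7 names and the 42 ratios in each genotype), and chance marks about 1 set in 20. It was found in 3. The log2 ratio of L1MdA_I to L1MdA_III was -1.33 in WT replicate 2, where the next value was -1.68. In KO replicate 4 the same ratio was -1.52, with the next value at -1.78. The log2 ratio of L1MdA_III to L1MdA_IV was 0.055 in WT replicate 2, with the next value at 0.458.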

How the results depend on the processing

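The whole-table call count of 47 rows (42 lower) was 390 (33 lower) with library totals, 78 (72) with TMM on rows outside the LTR class, 169 (127) by DESeq2, 71 (63) by limma-voom with quality weights, 18 (17) without a filter, 107 (92) with at least 10 counts in all libraries, 108 (87) without simple repeats, 72 (67) with library size as covariate, 23 (19) without WT replicate 2 and KO replicate 5, and 2 (2) without KO replicates 1 and 6, an alternative chosen after seeing the data. It ran from 19 to 93 (18 to 84 lower) over single omissions.

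L1MdA_II had a negative log2 fold change in all 27 alternatives run, from -0.996 to -0.60. Its call was kept in 17 of them. It was lost (0 L1MdA names called lower instead of 1) without a filter, without WT replicate 2 and KO replicate 5 and without KO replicates 1 and 6, and over single omissions the number of L1MdA names called lower was 0 to 1; fewer libraries or more rows tested are part of these settings by construction. The other 6 names passed the test in none of the 27.

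Signs of values near 0 turned. L1MdA_IV was -0.0249 and L1MdA_V -0.0262 with TMM outside the LTR class, -0.0128 and -0.0101 by limma-voom, -0.001 and -0.003 without the 20 most abundant rows in the scaling, -0.0253 and -0.0059 with the replicate block, and -0.0116 and -0.0175 with the library size covariate. L1MdA_VI was 0.1171 with library totals. Over the omissions of 1 or 2 libraries, L1MdA_I ran from -0.0217 to 0.2539, L1MdA_III from -0.0332 to 0.3113, L1MdA_IV from -0.0629 to 0.2143, L1MdA_V from -0.0777 to 0.1321 and L1MdA_VII from -0.0372 to 0.1798. Over the same omissions, 6 ratios turned in sign: L1MdA_I to L1MdA_III (-0.132 to 0.0192), to L1MdA_V (-0.0274 to 0.1335) and to L1MdA_VII (-0.0911 to 0.0708), L1MdA_III to L1MdA_VII (-0.0204 to 0.1344), and L1MdA_IV to L1MdA_V (-0.0767 to 0.088) and to L1MdA_VII (-0.1309 to 0.0253). The cause was not tested.

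The titles number the libraries 1 to 6 in both genotypes. Same-numbered libraries correlated in their deviations with r between -0.0712 and 0.155, above 0.1 for 1 of the 6 numbers. A library did not in general correlate best with its own number. The numbers were therefore not treated as pairs, although these correlations cannot show whether same-numbered libraries were collected together. With the replicate block, edgeR called 48 rows and L1MdA_II stayed called at -0.92 (adjusted p = 0.0433). Of the 42 ratios, 22 passed, and 17 to 25 did over the settings other than the replicate block. With the replicate block 0 did (sign-flip test over 6 pairs, lowest adjusted p = 0.0772). So few sign flips are possible with 6 pairs that their smallest p is large against an adjustment over 42. A ratio could pass only if many of the 42 reached that smallest p, and too few did. That setting therefore had little power to decide whether a single ratio holds under pairing.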
